A study of Mus musculus with 9 samples.

Results

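The genes described are 10 epithelial gatekeepers, chosen by name with earlier results of these data known. The list holds the splicing regulators Esrp1, Esrp2 and Rbm47, the transcription factors Grhl1, Grhl2, Ovol1 and Ovol2, and the membrane protease matriptase (St14) with its inhibitors Spint1 and Spint2. They are 10 of the 47643 genes in the count tables, and all 10 were among the 14105 that had at least 100 reads in total and were tested. The data are 3′ end RNA-seq of tumor cells sorted from mice with pancreatic ductal adenocarcinoma (PDAC). KPF mice carried Flp-dependent tumor alleles, among them Trp53 frt/+, with the driver Pdx-Flp and the reporter R26 FSF-CreER/Dual. Flp recombinase under the Pdx promoter removed a Trp53 allele in the pancreas, and a dual reporter colored those cells green. Tamoxifen was expected to turn the reporter from GFP to tdTomato (Tm) in tumor cells of both groups. KPYYF mice carried Yap flox/flox alleles as well, so that tamoxifen also deleted Yap in their tumor cells. GFP+Yap+ cells were taken from KPF tumors (6 libraries, named here by mouse number 4269, 4435, 4504h, 4504s, 4515 and 4601) and Tm+Yap- cells from relapsed nodules of KPYYF tumors (3 libraries, 4449, 4891 and 4938). Genotype, Yap status and reporter color change together, so they cannot be told apart. Mice of both groups had been given tamoxifen, according to the study's text, although the cells sorted from KPF mice were still green. The labels give no age, sex or tumor stage for these mice. Xist, a transcript of female cells, had 79, 71 and 159 reads in KPF 4269, 4515 and 4601. It had 10933, 7434 and 5878 in KPF 4435, 4504h and 4504s, and 13854, 3452 and 16108 in KPYYF 4449, 4891 and 4938. The libraries low in Xist were thus all KPF, so Xist level was not balanced between the groups. Libraries 4504h and 4504s bear the same mouse number with different letters. Whether all libraries came from separate mice is not stated for that pair, and p-values measure only the spread between libraries.

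Epithelial cells hold their state with several layers of control that are lost in epithelial-mesenchymal transition (EMT). Esrp1, Esrp2 and Rbm47 are RNA-binding proteins that set epithelial splice patterns and, for Rbm47, transcript stability. Grainyhead-like (Grhl) factors bind and open enhancers of junction genes, and Ovol zinc-finger factors repress Zeb1 and other EMT drivers. Matriptase, the product of St14, is a serine protease on the epithelial surface that activates prostasin (Prss8), the growth factor HGF and the receptor PAR2 (F2rl1). The Kunitz-type inhibitors HAI-1 (Spint1) and HAI-2 (Spint2) hold it in check, and loss of that balance is known to drive carcinoma in mouse skin.

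The libraries held 8116539 to 9635514 reads assigned to genes, so a count of 0 allowed a level of up to 0.292 to 0.437 CPM, the read count per library size scaled by edgeR's TMM factors and the unit of every level below. Intervals from counts and these floors cover counting error only. Yap1 stood at 41.8 to 151 CPM in the 6 KPF libraries and at 0.712, 2.84 and 7.12 CPM in the KPYYF libraries, with no overlap, although the sources used here do not say whether the 3′ tag lies in the deleted part. All 10 ductal epithelial markers (among them Krt7, Krt8, Krt18, Krt19, Sox9, Epcam, Cdh1, Muc1 and Cftr) were detected in all 9 libraries and their summed level was 3557 to 9333 CPM in KPF and 631 to 1900 CPM in KPYYF. Summed acinar markers reached 10090 CPM in KPF 4504s and 5083 CPM in KPYYF 4449, against 33.2 to 457 CPM elsewhere, and summed immune markers reached 7520 CPM in KPF 4601 against 343 to 1290 CPM elsewhere. In bulk samples, fewer cells of a type and less RNA per cell cannot be told apart.

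The question was whether tumor cells that had lost Yap differed from Yap-expressing tumor cells in these 10 genes. Esrp2, Rbm47, Grhl2 and Spint2 lay lower in every KPYYF library than in any KPF library. Esrp1, Grhl1, Ovol1, Ovol2, St14 and Spint1 overlapped between the groups. Non-overlap in this direction was seen for 5.18% of all genes tested and in the opposite direction for 3.92%, and no member stood higher in all KPYYF libraries. The quasi-likelihood test of edgeR was run on all 14105 genes and its p-values adjusted by Benjamini and Hochberg's method. By it, 0 of the 10 members passed an adjusted p of 0.05 in either direction, beside 0.794% of all genes called lower and 0.305% called higher. A cutoff of the kind used in the methods, unadjusted p under 0.05 with more than a 2-fold change, was applied to the edgeR fit. By it 4 members were lower, the same 4 as above, and 0 were higher, while 9.2% and 4.2% of all genes passed lower and higher. DESeq2 called the same 4 members lower at an adjusted p under 0.05 and 6.75% of all genes, and limma-voom called 0 members and 0.276% of all genes lower. With DESeq2, the tool that the methods name, the unadjusted cutoff gave 5 members lower. The added member was St14 (log2 fold change -2.14, DESeq2 unadjusted p = 0.0147), and the share of all genes at that cutoff was not computed for DESeq2. Of the 10 fold changes 9 were negative, beside 7518 of the 14105 genes tested. The median of the 10 was -2.24 on the log2 scale against -0.07 over all genes tested. Because the members were chosen with earlier results of these data known, these counts and medians describe them and test nothing. Without KPYYF library 4449, Esrp2, Rbm47 and Spint2 passed the edgeR threshold, with adjusted p of 0.0237, 0.0294 and 0.0220, and 1.43% of all genes tested were called lower.

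**Figure D1:**
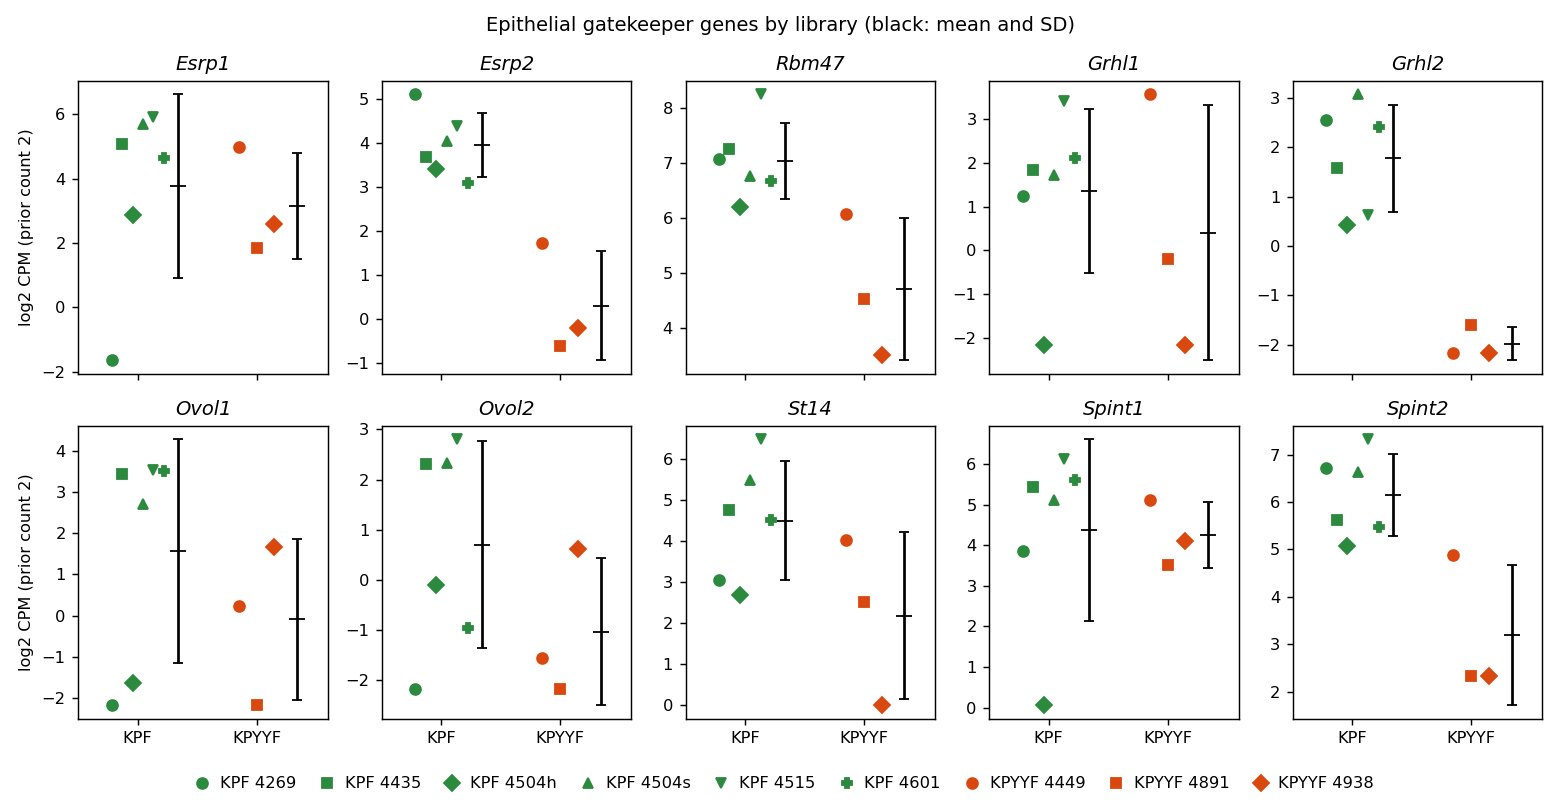
Level of each gatekeeper gene by library, as log2 CPM with a prior count of 2 (y axis), for the 6 KPF and 3 KPYYF libraries. Symbols mark libraries and black bars the mean and SD. The groups are apart for Esrp2, Rbm47, Grhl2 and Spint2, while in each other panel at least 1 KPF library lies below the highest KPYYF library.

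Among the splicing regulators, both Esrp2 and Rbm47 were lower in all Tm+Yap- libraries, whereas Esrp1 was not. Esrp2 (GRCm38 chr8:106130319-106136974, minus strand) had a lowest level of 8.31, a median of 14.5 and a highest level of 34.4 CPM in KPF. In KPYYF it stood at 3.09 CPM in 4449, 0.437 CPM in 4891 and 0.658 CPM in 4938, from 26, 4 and 6 reads. Even the highest KPYYF library therefore lay under the lowest KPF library. The log2 fold change was -3.62 (SE 0.87, edgeR adjusted p = 0.0643), and the exact two-sided permutation test of log2 CPM gave p = 0.0119, the smallest that the 84 divisions of 9 libraries into 6 and 3 allow. Exons of Esrp2 overlap those of Nfatc3 and 1810019D21Rik on the other strand, and the strand setting used in counting is not given in the sources used here, so reads of these genes cannot be told apart with certainty. Nfatc3 had a log2 fold change of 0.26 (edgeR adjusted p = 0.814). 1810019D21Rik had 337 reads over the KPF libraries and 0 over the KPYYF libraries, which makes it at least 55.0-fold higher in KPF when 3 counts over the KPYYF group are taken as the floor (edgeR adjusted p = 0.0812).

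Rbm47 (chr5:66016549-66173118, minus strand) ranged from 73.3 CPM in 4504h through a median of 121 CPM to 303 CPM in 4515 in the KPF group. The KPYYF libraries had 67.0 CPM in 4449, 22.9 CPM in 4891 and 11.2 CPM in 4938. The groups did not overlap and library 4449 came closest to the KPF range. Its log2 fold change came to -2.11 (SE 0.60, edgeR adjusted p = 0.117; exact permutation p = 0.0119). Its gene model shares exon sequence with Gm43323 on the same strand, whose log2 fold change was -1.84 (edgeR adjusted p = 0.465), and with Gm26725 on the other strand.

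Esrp1 (chr4:11331933-11386783, minus strand), which shares most known splice targets with Esrp2, did not separate the groups. Its KPF levels ran from 0.0973 CPM in 4269 through a median of 29.0 to 60.9 CPM in 4515. Its KPYYF levels were 31.7, 3.39 and 5.81 CPM. The lowest value of all 9 thus belonged to a Yap+ library, 4269, where Esrp1 had 1 read and Esrp2 had 354, the most of any library. On the log2 scale the fold change was -1.12 (SE 1.24, edgeR adjusted p = 0.729; exact permutation p = 0.821). The fitted value was -2.68 without 4449 and -0.66 without 4891. Its exons overlap Gm26663 on the other strand.

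RefSeq promoter windows (assembly GRCm38.p6, 250 bases before to 50 bases after the start) were found for 5 of the 10 members, 8 windows in all: Rbm47, Grhl1, Ovol2, Spint1 and Spint2. Both strands were searched for 4 core motifs that do not overlap one another in these windows: CAGGTG, the E-box bound by Zeb and Snai factors, AACCGGTT, a Grainyhead site, CCGTTA, an Ovol site, and GGAATG, the site of the TEAD factors through which Yap reaches DNA. AACCGGTT and CCGTTA matched 0 of the 8 windows, and 0.146% and 2.76% of 32841 windows genome-wide. GGAATG matched 1 of the 8 and 14.7% of all. The match lay in a window of Rbm47 (chr5:66150929-66151228, minus strand), 179 bases before the RefSeq start of that window. All Rbm47 windows lie inside the gene model given above, downstream of its annotated 5′ end. The window with the match is shown because Yap loss is the contrast studied. Capitals mark the TEAD core.
Rbm47 promoter: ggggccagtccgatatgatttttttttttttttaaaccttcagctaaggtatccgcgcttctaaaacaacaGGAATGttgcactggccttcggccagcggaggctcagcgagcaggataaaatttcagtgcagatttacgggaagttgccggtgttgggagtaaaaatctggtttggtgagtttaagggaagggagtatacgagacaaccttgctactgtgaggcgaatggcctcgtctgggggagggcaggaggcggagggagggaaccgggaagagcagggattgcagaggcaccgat
The other windows of Rbm47 held none of the 4 motifs. A match of letters is a description and does not show that a factor bound there.

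Esrp1 and Esrp2 were also compared within each library. The log2 ratio of Esrp1 over Esrp2 was -6.76 in 4269 and -0.54 in 4504h, and between 1.38 and 1.65 in the other 4 KPF libraries. In the KPYYF libraries it was 3.27 in 4449, 2.45 in 4891 and 2.78 in 4938, above every KPF library. The difference in means was 3.03 (exact permutation p = 0.143, 0.214 after Benjamini-Hochberg adjustment over the 6 ratios compared). Without library 4269 the difference was 1.72 (exact permutation p = 0.0179, the smallest possible with 8 libraries split this way, adjusted 0.107).

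Counts at the 3′ end see a gene's total output and not its exon choice, so the targets of Esrp could be compared only in amount. Of 12 genes known to be spliced by Esrp, 1 was lower by edgeR's adjusted p, 0 were higher, and the median log2 fold change was -0.18. The gene called was Fgfr2, a growth factor receptor whose epithelial isoform depends on Esrp. It had 3.21 to 16.5 CPM in the KPF libraries and 0, 1 and 1 reads in the KPYYF libraries. The pooled ratio of KPF over KPYYF was 132, with a 95% counting interval of 36.4 to 1095, and the edgeR adjusted p was 0.0292. That p passed 0.05 without 4269, 4504h, 4601 or 4449 but not without 4435, 4504s, 4515, 4891 or 4938, where it reached 0.0877. Magi1, a junction scaffold, had a log2 fold change of -2.21 (edgeR adjusted p = 0.123), and Cd44, a hyaluronan receptor with a switch between epithelial and mesenchymal isoforms, one of -0.66 (edgeR adjusted p = 0.411). The 6 regulators linked to mesenchymal splicing (Rbfox2, Qk, Mbnl1, Mbnl2, Ptbp1 and Celf1) all had positive log2 fold changes, beside 6587 of the 14105 genes tested. The median of the 6 was 0.33, and 0 of the 6 passed edgeR's adjusted p of 0.05. Unadjusted p was under 0.05 for 1 of them, Rbfox2, which had 96.5 to 186 CPM in KPF and 121, 447 and 329 CPM in KPYYF (log2 fold change 1.00, edgeR adjusted p = 0.178). DESeq2 and limma-voom called 0 of the 6 higher, and edgeR called 1 without KPYYF 4449.

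**Figure D2:**
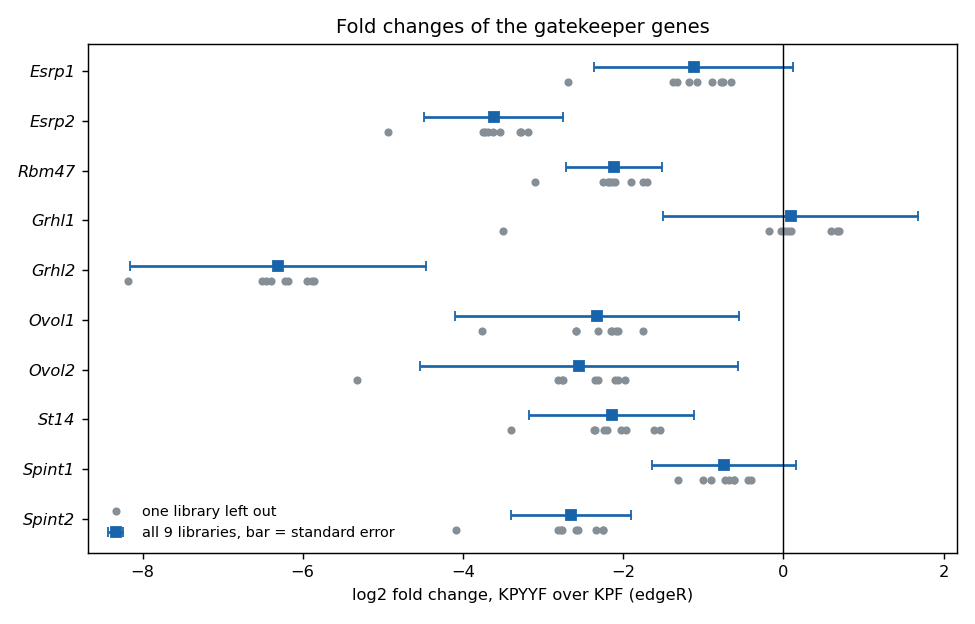
Log2 fold change of each gatekeeper gene, KPYYF over KPF, from edgeR (x axis). Blue squares use all 9 libraries and bars are standard errors, and grey points are the 9 fits that each leave out a library. Esrp2, Rbm47, Grhl2, Ovol1, Ovol2, St14 and Spint2 stayed under -1 throughout, and for Esrp1, Esrp2, Rbm47, Grhl1, St14, Spint1 and Spint2 the grey point farthest to the left is the fit without KPYYF 4449.

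Among the transcription factors, Grhl2 gave 1 read in all Tm+Yap- libraries together, while its paralog Grhl1 and both Ovol genes overlapped between the groups. Grhl2 (chr15:37233036-37363569, plus strand), the main Grainyhead factor of simple epithelia, had 1.12 CPM in 4504h, a median of 3.93 and 8.20 CPM in 4504s among KPF libraries, from 11 to 72 reads. In KPYYF it had 0 reads in 4449, 1 read in 4891 and 0 reads in 4938. All KPYYF libraries were thus under the floor of 3 counts and all KPF libraries above it. In total 215 reads stood against 1, a pooled ratio of 105 with a 95% counting interval of 18.7 to 4178. The fitted log2 fold change was -6.31 (SE 1.85, edgeR adjusted p = 0.119, exact permutation p = 0.0119), and its size is uncertain at so few reads. The prior count of 2 enters the permutation test and not this edgeR fold change. Gm16136, on the other strand across Grhl2 exons, had a log2 fold change of 0.01 (edgeR adjusted p = 0.999).

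Grhl1 (chr12:24572283-24617391, plus strand), better known for desmosome genes of skin, had 0 CPM in 4504h, a median of 3.23 and 10.4 CPM in 4515 within the KPF group. In the KPYYF group it had 11.6 CPM in 4449, 0.656 CPM in 4891 and 0 CPM in 4938. Library 4449 therefore held the highest Grhl1 level of all 9 and no Grhl2 read. The log2 fold change was 0.09 (SE 1.59, edgeR adjusted p = 0.988; exact permutation p = 0.595), and it was -3.50 without 4449. The mean difference in log2 CPM over all libraries was -0.96, opposite in sign. The log2 ratio of Grhl1 over Grhl2 was higher in KPYYF by 2.80 (exact permutation p = 0.131, adjusted 0.214), with values of 5.74, 1.41 and 0 against -2.60 to 2.78 in KPF. Without 4449 the difference was 1.13 (exact permutation p = 0.5). The prior count sets part of these values, as 4449 had no read of Grhl2 and 4938 no read of either gene.

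Ovol1 (chr19:5549136-5560646, minus strand) had 0 CPM in 4269 and 0.102 CPM in 4504h, but 6.26 to 11.4 CPM in the other 4 KPF libraries. The KPYYF levels were 0.950, 0 and 2.96 CPM. All 3 KPYYF values were under those 4 KPF values, while 4269 and 4504h lay within the KPYYF range. The fitted difference on the log2 scale was -2.33 (SE 1.77, edgeR adjusted p = 0.572; exact permutation p = 0.417). Ovol2 (chr2:144305175-144332146, minus strand) had a like spread. It stood at 0 CPM in 4269, 0.292 CPM in 4601, 0.715 CPM in 4504h and 4.71 to 6.75 CPM in 4435, 4504s and 4515, against 0.119, 0 and 1.32 CPM in KPYYF. Its log2 fold change was -2.55 (SE 1.98, edgeR adjusted p = 0.582; exact permutation p = 0.25), and its exons overlap 1700108N11Rik on the other strand. Without 4938 the log2 fold changes were -3.77 for Ovol1 and -5.32 for Ovol2. The log2 ratio of Ovol1 over Ovol2 differed by 0.08 between the groups (exact permutation p = 0.988), although Ovol1 had 77 reads and Ovol2 2 reads in 4601.

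Relatives of the members added little. Of 11 relatives 3 were tested, and 4 (Ovol3, Spint3, Spint4 and Spint5) had no read in any library. Tfcp2l1, a factor of the same superfamily as Grhl genes, had 4.71 to 43.0 CPM in KPF and 6.53, 1.86 and 1.32 CPM in KPYYF (log2 fold change -2.49, edgeR adjusted p = 0.191). Ubp1, another member of that superfamily, had a log2 fold change of 0.21 (edgeR adjusted p = 0.750). By edgeR 0 relatives were called and 1 had an unadjusted p under 0.05, DESeq2 called 1 lower and limma-voom 0. Grhl3 was not tested and had at most 1.54 CPM.

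Most known epithelial targets of Grhl and Ovol factors had negative log2 fold changes, but 2 passed edgeR's adjusted p. Of 20 such genes, 18 had negative log2 fold changes, beside 7518 of the 14105 genes tested, and the median of the 20 was -1.91. As lower, 2 passed edgeR's adjusted p, 8 passed the unadjusted 2-fold cutoff, and 4 did not overlap between groups. The shares over all genes tested were 0.794%, 9.2% and 5.18%. Cdh1, Epcam, Krt8, Krt18 and Krt19 are also among the ductal markers. The adherens junction gene Cdh1 fell from 333 to 2105 CPM in KPF to 245, 98.3 and 94.0 CPM in KPYYF (log2 fold change -2.92, edgeR adjusted p = 0.0351). Krt18, a keratin of simple epithelia, fell from 1278 to 2365 CPM to 461, 243 and 268 CPM (log2 fold change -2.49, edgeR adjusted p = 0.0141). The call on Cdh1 was lost without 4269, 4435, 4504s, 4891 or 4938 (adjusted p up to 0.114) and that on Krt18 without 4891 or 4938 (up to 0.0557). Lsr, of tricellular junctions, had 71.5 to 291 CPM in KPF and 80.6, 29.0 and 19.3 CPM in KPYYF (log2 fold change -2.28, edgeR adjusted p = 0.0631). Ap1m2, the epithelial clathrin adaptor, had a log2 fold change of -3.52 (edgeR adjusted p = 0.159), and Tjp3, of tight junctions, one of -4.22 (edgeR adjusted p = 0.119).

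EMT transcription factors, some of which Ovol factors repress, were counted beside them. All 6 EMT transcription factors had positive log2 fold changes, beside 6587 of the 14105 genes tested. The median of the 6 was 1.07, but 1 passed the test. Twist2 rose from 0.111 to 8.28 CPM in KPF to 93.4, 158 and 160 CPM in KPYYF (log2 fold change 5.57, SE 0.95, edgeR adjusted p = 0.0277). It did not overlap between groups, and its edgeR adjusted p lay above 0.05, up to 0.0777, without 4435, 4504s, 4891 or 4938. Snai1 was also above every KPF library, at 39.1, 96.3 and 53.0 CPM against 2.14 to 36.3 CPM (log2 fold change 1.59, edgeR adjusted p = 0.241). Zeb1, the best known partner of Ovol2 in mutual repression, overlapped, at 30.6, 77.5 and 51.4 CPM against 12.4 to 44.8 CPM (log2 fold change 0.88, edgeR adjusted p = 0.339).

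**Figure D3:**
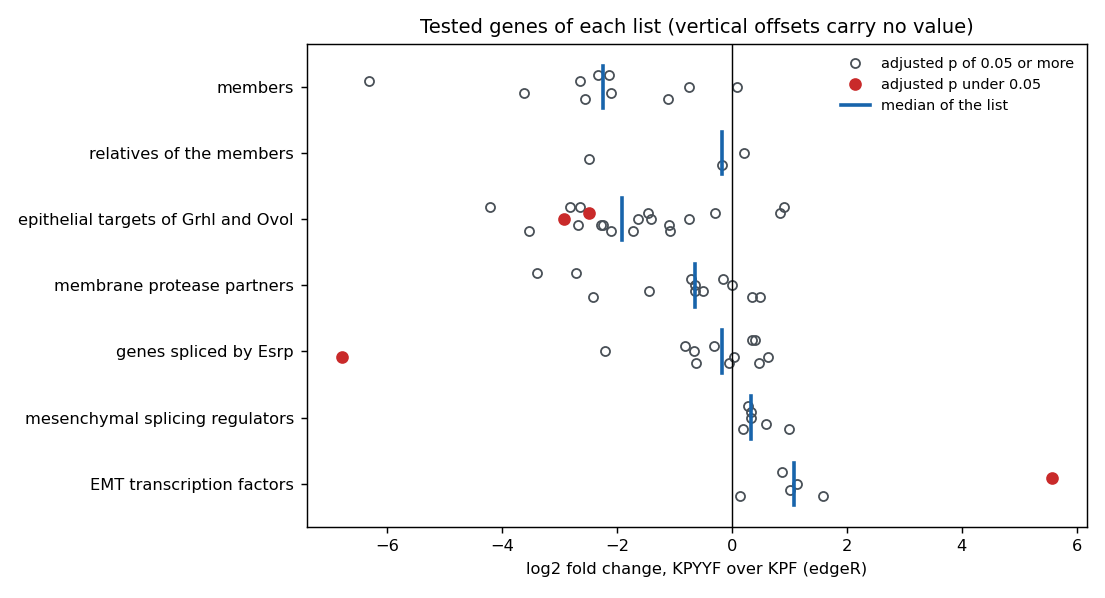
Log2 fold change, KPYYF over KPF from edgeR (x axis), of every tested gene in each list. Circles are genes, red when the adjusted p was under 0.05, and blue lines are list medians. Members and epithelial targets lie mostly to the left of 0 with medians of -2.24 and -1.91, EMT transcription factors to the right with a median of 1.07.

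In the matriptase system, the inhibitor Spint2 separated the groups while the protease St14 and the inhibitor Spint1 did not. St14 (chr9:31089402-31131853, minus strand) had 6.13 CPM in 4504h, a median of 24.8 and 89.2 CPM in 4515 among KPF libraries. It had 16.1 CPM in 4449, 5.47 CPM in 4891 and 0.767 CPM in 4938. Libraries 4891 and 4938 were under every KPF library, and 4449 was not. The log2 fold change was -2.14 (SE 1.02, edgeR adjusted p = 0.337; exact permutation p = 0.0833). Without 4449 the log2 fold change was -3.40 and the exact permutation p of log2 CPM was 0.0357, the smallest that 6 against 2 libraries allow. The adjusted p stayed above 0.05 under each of the 18 alternatives, from 0.116 with DESeq2 to 0.533 with edgeR.

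Spint2 (chr7:29256323-29281912, minus strand), which encodes HAI-2, ran from 33.6 CPM in 4504h through a median of 74.0 to 160 CPM in 4515 in the KPF group. The KPYYF levels were 29.4 CPM in 4449, 4.81 CPM in 4891 and 4.82 CPM in 4938. All were below every KPF library, 4449 by the least. As a log2 fold change the difference was -2.65 (SE 0.75, edgeR adjusted p = 0.116; exact permutation p = 0.0119), and it was -4.08 without 4449. Spint1 (chr2:119237362-119249527, plus strand), which encodes HAI-1, had 0.818 CPM in 4504h, a median of 38.7 and 69.2 CPM in 4515 among KPF libraries, and 34.7, 11.3 and 17.0 CPM in KPYYF. The single lowest library was again a Yap+ library, 4504h, with 8 reads of Spint1 beside 329 of Spint2. Its fitted log2 fold change was -0.74 (SE 0.90, edgeR adjusted p = 0.755; exact permutation p = 0.940). It was -1.31 without 4449, -0.44 without 4891 and -0.41 without 4515.

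The promoter windows of the 2 inhibitors are shown because these paralogs share an enzyme target and Spint2 alone of them was lower in every KPYYF library. CAGGTG, on either strand, matched 1 of the 8 member windows, that of Spint2 (chr7:29281928-29282227, minus strand), and 20.2% of all windows. It stood there 3 times, 74, 55 and 9 bases before the RefSeq start, as in 0.365% of all windows (120 of 32841 with 3 or more). That cutoff of 3 was not planned and equals the count seen in this window, so the share is a description only. The Spint1 window (chr2:119237110-119237409, plus strand) held none of the 4 motifs. Capitals mark CAGGTG.
Spint2 promoter: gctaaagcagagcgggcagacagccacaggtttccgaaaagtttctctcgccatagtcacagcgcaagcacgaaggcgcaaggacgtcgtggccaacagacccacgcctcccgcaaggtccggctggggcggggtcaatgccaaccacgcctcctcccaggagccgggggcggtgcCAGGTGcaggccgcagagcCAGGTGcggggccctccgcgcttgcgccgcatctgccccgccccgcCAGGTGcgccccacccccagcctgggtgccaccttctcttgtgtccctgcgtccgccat
Spint1 promoter: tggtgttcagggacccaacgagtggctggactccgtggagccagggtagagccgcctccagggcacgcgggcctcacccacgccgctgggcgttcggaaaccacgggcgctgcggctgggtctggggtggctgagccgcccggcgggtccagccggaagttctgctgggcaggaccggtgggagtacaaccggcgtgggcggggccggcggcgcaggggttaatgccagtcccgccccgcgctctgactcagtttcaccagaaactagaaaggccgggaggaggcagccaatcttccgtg
Both windows are rich in G and C, at 69.3% and 69.7%.

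Within libraries, the balance between protease and inhibitors was described by 3 log2 ratios. Spint1 over Spint2 lay between -5.03 and 0.13 in KPF and at 0.23, 1.19 and 1.77 in KPYYF, with no overlap and a difference of 2.84 (exact permutation p = 0.0357, adjusted over 6 ratios 0.143). St14 over Spint1 was lower in KPYYF by 2.20 on average, at -1.09, -1.01 and -4.12 against -1.10 to 2.61 (exact permutation p = 0.0476, adjusted 0.143). Without 4938, which had 7 reads of St14, that difference was -1.18 (exact permutation p = 0.357). St14 over Spint2 differed by 0.64, with overlapping values (exact permutation p = 0.524, adjusted 0.629), and by 0.23, 0.043 and 1.31 without 4269, 4891 and 4938. None of the 6 ratios passed an adjusted p of 0.05. Library 4504h, with its few Spint1 reads, was at an extreme of both ratios that contain Spint1, at -5.03 and 2.61. Without it the difference was 2.19 for Spint1 over Spint2 (exact permutation p = 0.0357) and -1.71 for St14 over Spint1 (exact permutation p = 0.0536).

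**Figure D4:**
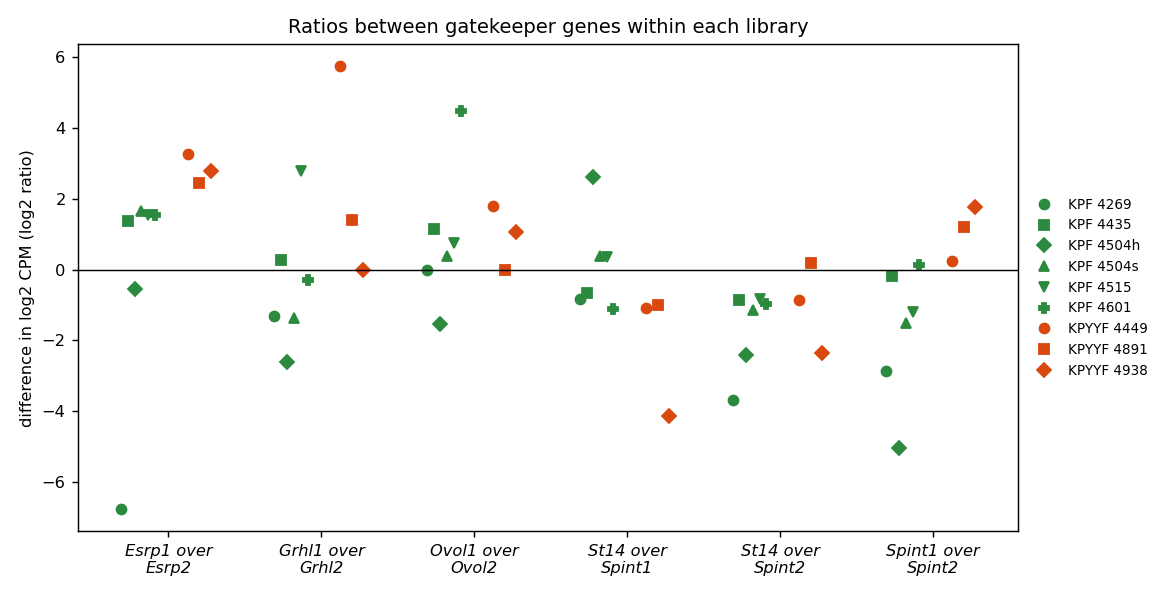
Log2 ratio of each pair of gatekeeper genes within each library (y axis, difference in log2 CPM) for 6 pairs (x axis). Green symbols are KPF libraries and orange symbols KPYYF libraries. Esrp1 over Esrp2 and Spint1 over Spint2 are higher in all 3 KPYYF libraries than in any KPF library, and KPF 4269 stands alone at -6.76 for Esrp1 over Esrp2.

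Substrates and fellow proteases of matriptase were mixed. Of 15 partners 12 were tested, and 10 had negative log2 fold changes, beside 7518 of the 14105 genes tested. The median of the 12 was -0.64. By edgeR's adjusted p 0 were called, by the unadjusted 2-fold cutoff 3 were lower, DESeq2 called 3 lower and limma-voom 0. Those at the cutoff were Mst1r, the receptor RON for macrophage-stimulating protein, Tmprss2, a related membrane protease, and Plaur, the urokinase receptor. Mst1r had 6.44 to 42.6 CPM in KPF and 2.61, 0.656 and 2.41 CPM in KPYYF, with no overlap (log2 fold change -3.39, edgeR adjusted p = 0.0631). Tmprss2 had 27.0 to 162 CPM in KPF and 28.3, 8.20 and 6.47 CPM in KPYYF (log2 fold change -2.41, edgeR adjusted p = 0.0915). Plaur had 95.5 to 398 CPM against 60.8, 36.8 and 133 CPM (log2 fold change -1.45, edgeR adjusted p = 0.185). The main substrates overlapped between the groups. Prss8, encoding prostasin, had 0.409 to 28.7 CPM in KPF and 27.0, 0.109 and 1.32 CPM in KPYYF (log2 fold change -0.16, edgeR adjusted p = 0.976). F2rl1, encoding PAR2, had a log2 fold change of 0.36 (edgeR adjusted p = 0.771), and Met, the receptor of HGF, one of -0.71 (edgeR adjusted p = 0.497). Hgf itself was under the read minimum.

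Seen by library rather than by gene, the members differed in which library stood highest or lowest. Among KPF libraries 4515 had the highest level of 8 members, and 4504h was below the KPF median for all 10 and lowest for 6 (Rbm47, Grhl1, Grhl2, St14, Spint1 and Spint2). Library 4269 was lowest for Esrp1, Ovol1 and Ovol2 but highest for Esrp2. Among KPYYF libraries 4449 was highest for 7 members (Esrp1, Esrp2, Rbm47, Grhl1, St14, Spint1 and Spint2). It lay under all KPF libraries for 4 members, against 5 for 4891 and 5 for 4938. The matching share of all genes was not computed for single libraries, so these counts are a description only. The summed ductal markers followed the same order at the ends, with 9333 CPM in 4515, 3557 CPM in 4504h, and 1900, 631 and 865 CPM in 4449, 4891 and 4938, and their part in the members' levels was not tested. Of those 10 ductal markers, 4 passed edgeR's adjusted p (Cdh1, Krt18, Muc1 and Cftr), all lower, and the median log2 fold change of the 10 was -2.56. Muc1 and Cftr kept an edgeR adjusted p under 0.05 in 2 and 3 of the 9 fits that left out a library. Without both acinar-rich libraries, KPF 4504s and KPYYF 4449, 3 members were called lower by edgeR (Esrp2 at -4.95, Rbm47 at -3.17 and Spint2 at -4.02 on the log2 scale) beside 0.763% of all genes, a setting chosen after the data were seen.

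Summed fibroblast markers were 422 to 5512 CPM in KPF and 1133 to 3117 CPM in KPYYF, with 9 or 10 of the 10 detected in KPF and 8 to 10 in KPYYF. Summed endothelial markers were 18.6 to 88.4 CPM and 10.5 to 43.5 CPM, and islet markers 2.45 to 74.1 CPM and 2.63 to 20.4 CPM. Between 7 and 9 of 10 acinar markers and 7 to 10 of 10 immune markers were detected, and the amylase gene Amy2a5 had no read in any library. By edgeR's adjusted p 0 genes of these 5 lists were called. An unadjusted p under 0.05 was seen for 1 fibroblast, 1 immune, 2 endothelial and 3 islet markers that were lower, 2 fibroblast markers that were higher and 0 acinar markers. DESeq2 called 1 fibroblast, 2 endothelial and 2 islet markers lower and 1 fibroblast marker higher, and limma-voom called 0.

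How alike the members were across libraries was measured as the root mean square difference between log2 CPM profiles, each centred on its own mean over the 9 libraries, which share depth and scaling. The closest pairs were Esrp2 and Spint2 (0.54) and Rbm47 and Spint2 (0.58), and the farthest were Esrp1 and Grhl2 (2.97) and Esrp1 and Esrp2 (2.87). Among 8894 other genes with a mean of at least 10 CPM, the nearest to Esrp1 were the cytokine Il6 (0.91) and the small GTPase Rab25 (0.95), which had 0 and 0.292 CPM in 4269. The nearest to Ovol1 were the trefoil factor Tff2 (0.92) and Ly6d (0.99). The nearest to St14 were the galectin Lgals4 (0.47) and Pglyrp1 (0.57), closer than any match for the other members examined. The nearest to Spint1 were Krtcap3 (0.64) and Kdf1 (0.69), and both were lowest in 4504h, at 1.12 and 0.613 CPM. The nearest to Grhl2 were the zinc-finger factor Tshz2 (0.71) and the potassium channel subunit Kcne3 (0.79). Because nearest genes were picked by their profile over these same libraries, a shared group gap or lowest library follows from the choice. Tshz2 fell from 52.7 to 78.1 CPM in KPF to 4.51, 6.45 and 2.96 CPM in KPYYF (log2 fold change -3.72, edgeR adjusted p = 0.00386). Kcne3 had 9.81 to 103 CPM and 1.07, 2.73 and 4.05 CPM (log2 fold change -4.16, edgeR adjusted p = 0.0454), and its adjusted p was under 0.05 in 1 of the 9 fits that left out a library.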

How the data were processed

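The authors sorted tumor cells. The labels name an RNeasy kit and 3′ end libraries (Lexogen QuantSeq 3′ Fwd), which give about a read per transcript, while the methods text describes expression BeadChips. The files hold sequencing read counts and were analysed as such. The deposited values are raw read counts per Ensembl gene for each of 9 libraries (6 KPF, 3 KPYYF). The submitters' processing notes name STAR, HTSeq and mm10. Versions, annotation and strand setting are not given in the sources used here, and the 5 summary lines that name no gene (58.0% to 62.7% of reads) were left out. Symbols matched 47224 of 47643 genes. Genes with at least 100 reads in total were tested with edgeR 4.0.16 in R 4.3.3 (TMM, robust quasi-likelihood, no covariate, two-sided, Benjamini-Hochberg). The fit was checked on simulated counts that varied less between libraries than these data, so that check does not show how the test performs here. The methods name DESeq2, used here (1.42.0) as an alternative beside limma-voom (3.58.1), other scalings and filters, and fits without each library. Log2 CPM used a prior count of 2. Positions come from GENCODE M21 on GRCm38, the build of mm10, and promoters from RefSeq. Members and gene lists were chosen with earlier results of these data known. Named genes were members, list genes and, for 5 members, the 2 nearest profiles among genes of at least 10 CPM. Some list genes and an allele are counted or used but not reported here by name.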

Additional observations from a re-analysis of the deposited data

Results flagged for a closer look

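Across the 6 KPF libraries, 16 values (10 gene levels and 6 ratios) were checked for a library far from the others, and 2 were past the 95% limit of Dixon's gap ratio, which chance passes in about 1 of 20 groups. Spint1 in KPF 4504h was the lowest of its group at 0.818 CPM, or 0.06 as log2 CPM, with a gap of 0.629 of the whole range. The log2 ratio of Esrp1 over Esrp2 in KPF 4269 was the lowest at -6.76, with a gap of 0.740 of the range.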

How the results depend on the processing

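Of 18 alternatives, Esrp2, Rbm47, Grhl2 and Spint2 kept a negative log2 fold change and an unadjusted p under 0.05 in all 18, but an adjusted p under 0.05 in only 4, 3, 1 and 3 of them, and the adjusted p ran from 0.00015 to 0.260, 0.00445 to 0.281, 0.00185 to 0.277 and 0.00177 to 0.279. The other 6 members passed the adjusted threshold in none of the 18. The choice of test moved the counts most: DESeq2 called 928 genes lower and 269 higher where edgeR called 112 and 43, and limma-voom 39 and 44. The cause was not tested. Without a read filter 22925 genes entered, 219 and 88 were called, and the median of all genes moved from -0.07 to -0.31. Calls in total were 31 and 6 in the libraries with at least 1000 Xist reads, which keep only 4435, 4504h and 4504s of the KPF group. Totals were 86 and 25 with 4504h and 4504s summed, and 13 to 198 lower and 6 to 75 higher when a library was left out.

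Members called lower were 4 with DESeq2, beside 6.75% of all genes, and 1 without the filter, beside 219 of 22925 genes. They were 3 without KPF 4504s and KPYYF 4449 together (chosen after seeing the data), beside 0.763% of all genes. When a library was left out they were 0 to 3, beside 13 to 198 of all genes. DESeq2 called 1 relative, 2 genes spliced by Esrp, 8 epithelial targets and 3 protease partners lower. With limma-voom these were 0 spliced genes and 4 targets, beside 0.276% of all genes. With the Xist-positive libraries they were 0 and 1, beside 31 of 13077 genes, and without 4504s and 4449 together 0 and 4. Without the filter 2 protease partners were lower and 0 EMT factors higher, and EMT factors were also 0 without 4504s and 4449. Leaving out a library gave 0 to 1 spliced genes, 0 to 4 targets, 0 to 1 protease partners, 0 to 1 mesenchymal splicing regulators and 0 to 1 EMT factors.

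Some signs turned, each of a value that did not pass its test. The log2 fold change of Grhl1 (0.09) was -2.51 with limma-voom, -0.065 with 4504h and 4504s summed, -3.56 without 4504s and 4449, and -3.50 to 0.69 when a library was left out. F2rl1 (0.36) ranged from -0.10 to 0.65 over the 18 alternatives, and Prss8 (-0.16) was -3.86 to 0.44. The ratio of Ovol1 over Ovol2 (0.08) was -0.14 with a prior count of 5, -0.35 with 4504h and 4504s summed, and -0.40 to 0.81 when a library was left out. The log2 CPM difference of Esrp1 (-0.61) ranged from -1.70 to 0.033 in such fits, that of Grhl1 (-0.96) from -2.54 to 0.33 and that of Spint1 (-0.12) from -0.98 to 0.26.

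No paired analysis was possible because the labels number mice and share no number between KPF and KPYYF. With 3 KPYYF libraries, exact permutation cannot go below p = 0.0119, and Grhl1, Grhl2, Ovol1 and Ovol2 rest on under 105 reads in any library.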
